A study of Mus musculus with 14 samples.

Results

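The miR-199 and miR-214 family of arms was followed through small RNA libraries of mouse dorsal root ganglia (DRG), the sensory ganglia beside the spinal cord. Its members are every arm and copy of miR-199a, miR-199b and miR-214 that the files list, which gave 6 of 1123 mature miRNAs: miR-199a-5p, miR-199b-5p, miR-199a-3p, miR-199b-3p, miR-214-5p and miR-214-3p. There were 14 libraries in 4 groups. They came from 3 injured CAST/Ei, 3 naive CAST/Ei, 3 injured C57BL/6 and 5 naive C57BL/6 samples, which the series text calls biological replicates. CAST/Ei and C57BL/6 are inbred strains, and no transgene or deletion is named for either. The injured animals were adult males, 8 to 10 weeks old. A forceps crush of 30 s had been applied on the left to the sciatic nerve, which carries axons of the ganglion neurons, and naive animals had no treatment. The sources used here do not give the age and sex of the naive animals, the time after injury or the ganglia taken. The comparisons ask whether these arms differ with nerve injury in each strain, between the strains, and between the strains' injury responses.

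A miRNA hairpin is cut into a 5p and a 3p arm, and bases 2 to 8 of an arm, the seed, do most of the pairing with target messages. miR-199 and miR-214 are known as miRNAs of fibroblasts and other mesenchymal cells, where a hairpin of each is carried on Dnm3os, a non-coding transcript read antisense to the dynamin gene Dnm3. They are best known from scarring tissue, in which miR-199a-5p was reported to repress caveolin-1. Repression of Ezh2 was reported for miR-214. In a peripheral ganglion fibroblasts lie in the capsule and between nerve fibres. Whole ganglia were dissociated and read together here, so the values do not show which cells held these arms, and fewer cells of a type and less RNA per cell cannot be told apart.

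The mature sequences are shown because 2 of the names share every base, which limits what can be read from them. They are from RefSeq on GRCm38.p6, which matched 5 of the 6 members, written 5′ to 3′ with the seed in capitals.
miR-199a-5p: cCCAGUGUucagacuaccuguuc
miR-199a-3p: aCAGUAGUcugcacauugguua
miR-199b-3p: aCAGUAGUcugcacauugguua
miR-214-5p: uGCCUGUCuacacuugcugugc
miR-214-3p: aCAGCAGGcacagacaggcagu
miR-199a-3p and miR-199b-3p differ at 0 of 22 bases. miR-199a-3p and miR-214-3p share the first 4 bases and differ at 14 of 22, inside the seed at U5C and U8G, with positions counted from the 5′ end. The 5 matched names carry 4 seeds, and among the 918 miRNAs of the files that matched RefSeq, none outside this family has any of them.

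The hairpins are given because the arms come from 4 places in the genome. In the lines that follow, capitals mark the mature arms that RefSeq lists.
Mir199a-2: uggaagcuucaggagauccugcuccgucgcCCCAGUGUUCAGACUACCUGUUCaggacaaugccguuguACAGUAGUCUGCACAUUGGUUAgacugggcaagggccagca
Mir214: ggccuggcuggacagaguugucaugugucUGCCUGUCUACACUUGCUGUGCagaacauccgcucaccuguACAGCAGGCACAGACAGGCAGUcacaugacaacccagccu
Mir199a-1: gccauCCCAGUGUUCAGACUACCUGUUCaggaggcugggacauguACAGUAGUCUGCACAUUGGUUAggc
Mir199b: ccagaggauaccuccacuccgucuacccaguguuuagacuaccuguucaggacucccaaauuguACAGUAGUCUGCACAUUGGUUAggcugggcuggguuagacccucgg
Mir199a-2 (chr1:162217814-162217923, plus strand) and Mir214 (chr1:162223368-162223477, plus strand) lie 5444 bases apart in the same exon of Dnm3os, opposite to Dnm3. Mir199a-1 (chr9:21496495-21496564, minus strand) lies in Dnm2 and Mir199b (chr2:32318460-32318569, plus strand) in Dnm1, each opposite to its dynamin gene and outside its exons. Mir199a-1 and Mir199a-2 give the same mature arms, so reads of miR-199a cannot be divided between chromosomes 1 and 9. The stretch of the Mir199b hairpin closest to miR-199a-5p differs from it at 1 of 23 bases, C10U, outside the seed.

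The libraries held 4007706 to 15642360 reads recovered from the deposited values, and every member had between 88 and 17486 reads in each. Values are reads per 1000000 of a scaled library size (CPM), on which 1 read is worth 0.0674 to 0.253 CPM. Libraries 4 and 5 of C57BL/6 naive DRG were unlike the rest. Over the 638 kept miRNAs they correlated at a Spearman rho of 0.871 to 0.926 with the other 12 libraries and of 0.951 with one another, and any pair of the other 12 reached at least 0.925. Summed over 6 epithelial miRNAs they held 1496 and 306 CPM, against 34.0 to 44.7 CPM in C57BL/6 naive libraries 1 to 3. In the other 3 groups that sum was 38.2 to 163 CPM, highest in CAST/Ei naive DRG. The liver miRNA miR-122-5p was at 369 to 661 CPM in libraries 4 and 5, against 8.63 to 15.7 CPM in libraries 1 to 3 and 11.6 to 39.8 CPM in the other 3 groups. Ganglion markers were high throughout, with 103355 to 166741 CPM summed over 7 neuronal miRNAs. For the members, values without libraries 4 and 5 are given beside the results they move.

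The 3p arms of miR-199 were the most abundant members, followed by miR-214-3p, and the 5p arm of miR-214 was the scarcest. Averaged over the 14 libraries, miR-199b-3p stood at 1259 ± 530 CPM and miR-199a-3p at 1258 ± 511 CPM (SD, n = 14), ranks 91 and 92 of 1123. Without C57BL/6 naive libraries 4 and 5 they stood at 1086 ± 149 and 1094 ± 154 CPM (SD, n = 12). miR-214-3p stood at 1008 ± 253 CPM, miR-199b-5p at 659 ± 254 CPM, miR-199a-5p at 393 ± 88.9 CPM and miR-214-5p at 41.2 ± 19.0 CPM (SD, n = 14 each). Neighbours in this order overlapped over libraries, with 1 exception. miR-214-5p reached at most 94.1 CPM in any library and miR-199a-5p was nowhere under 223 CPM. Summed, the 6 members came to 3806 to 3964 CPM in CAST/Ei injured DRG, 4105 to 4814 CPM in CAST/Ei naive, 4382 to 5015 CPM in C57BL/6 injured and 3271 to 8053 CPM in C57BL/6 naive DRG.

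**Figure D1:**
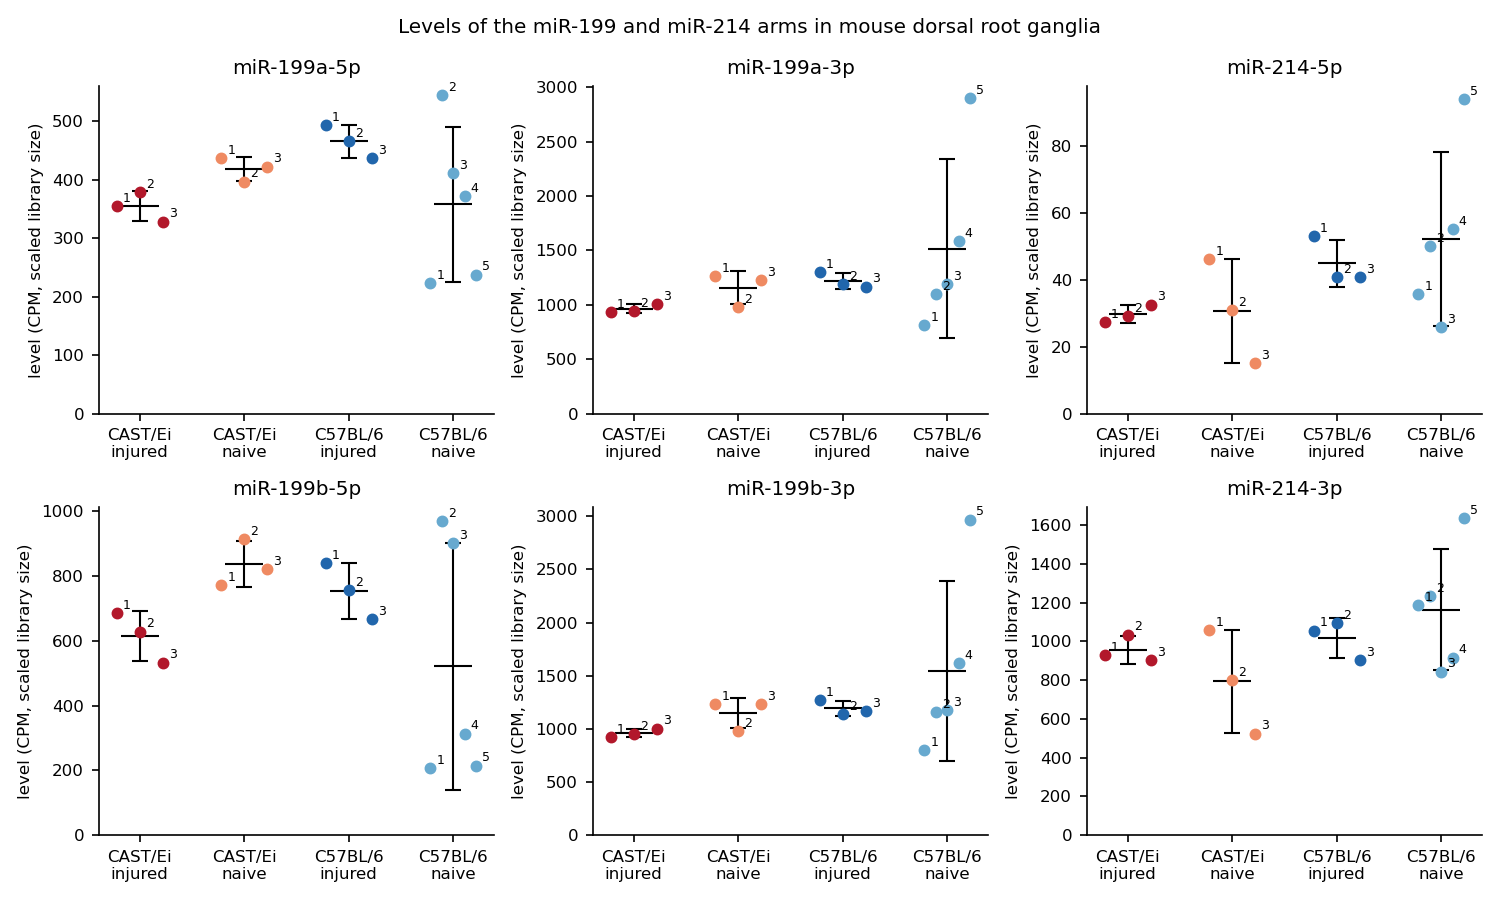
Level of each arm (y axis, CPM on scaled library sizes, from 0) in the 4 groups (x axis), with 1 numbered point per library and bars at the mean ± SD. For the miR-199 arms each of the other 3 groups spreads less than C57BL/6 naive libraries. Those run from 208 to 970 CPM for miR-199b-5p and from 815 to 2903 CPM for miR-199a-3p. CAST/Ei injured libraries lie below C57BL/6 injured ones for miR-199a-5p, miR-199a-3p and miR-199b-3p, and below CAST/Ei naive ones for the 5p arms of miR-199.

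miR-199b-5p had the widest spread of the members within a group, 4.67 times between the lowest and the highest C57BL/6 naive library. It stood at 685, 628 and 533 CPM in CAST/Ei injured DRG and at 773, 915 and 823 CPM in CAST/Ei naive DRG. In C57BL/6 injured DRG it stood at 840, 757 and 666 CPM, and in C57BL/6 naive libraries 1 to 5 at 208, 970, 902, 313 and 215 CPM. Within C57BL/6 naive DRG libraries 2 and 3 were therefore at the level of the CAST/Ei naive group and libraries 1, 4 and 5 below every other library of the study. The same 3 libraries were the lowest of the study in miR-338-3p, which makes up most of the list for myelinating glia, the cells that wrap axons. miR-338-3p stood at 15061, 33986, 32272, 6735 and 7116 CPM in C57BL/6 naive libraries 1 to 5, against 28769 to 42996 CPM in the other 3 groups. Over all 4 miRNAs of that list, which miR-338-3p dominates, the sums were 18222, 35829, 34716, 8628 and 8044 CPM, against 30720 to 45396 CPM, and none was at 0. The other arm, miR-338-5p, did not follow this order. It stood at 3157, 1832, 2424, 1891 and 921 CPM in C57BL/6 naive libraries 1 to 5, highest of the study in library 1, against 1836 to 3036 CPM in the other 3 groups. Sums over 5 erythrocyte miRNAs were also lower in C57BL/6 naive libraries 1, 4 and 5 than in libraries 2 and 3, at 10245, 15841, 26474, 7652 and 7369 CPM in libraries 1 to 5, and at 7680 to 14588 CPM in the other 3 groups. The part of glial or erythrocyte RNA in the miR-199b-5p values was not tested.

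miR-199a-5p, reported as a repressor of caveolin-1, stood at 355, 379 and 328 CPM in CAST/Ei injured DRG and at 437, 397 and 422 CPM in CAST/Ei naive DRG. It stood at 493, 467 and 437 CPM in C57BL/6 injured DRG and at 223, 544, 412, 373 and 238 CPM in C57BL/6 naive libraries 1 to 5. C57BL/6 naive libraries 1 and 5 were the lowest of all 14 and library 2 the highest, so this group spanned the other 3.

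miR-199a-3p, the arm with the seed CAGUAGU, stood at 934, 942 and 1010 CPM in CAST/Ei injured DRG and at 1266, 980 and 1229 CPM in CAST/Ei naive DRG. It stood at 1301, 1191 and 1168 CPM in C57BL/6 injured DRG and at 815, 1097, 1188, 1587 and 2903 CPM in C57BL/6 naive libraries 1 to 5. Libraries 4 and 5 were the 2 highest of the study, the opposite of their rank for miR-199b-5p. miR-199b-3p, with the same sequence, ran beside it at 801 to 2969 CPM.

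miR-214-3p, the more abundant arm of its hairpin, stood at 930, 1035 and 901 CPM in CAST/Ei injured DRG and at 1057, 802 and 523 CPM in CAST/Ei naive DRG. It stood at 1056, 1095 and 903 CPM in C57BL/6 injured DRG and at 1188, 1234, 844, 916 and 1635 CPM in C57BL/6 naive libraries 1 to 5. All 4 groups overlapped, and CAST/Ei naive library 3 was the lowest and C57BL/6 naive library 5 the highest. miR-214-5p, the rarer arm, had the same extremes, at 15.1 and 94.1 CPM.

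The copies of the 3p arm were counted evenly, and those of the 5p arm were not. Of the 3p reads of miR-199, those named miR-199a made up 48.6% to 51.2% in the 14 libraries with a median of 50.1%, and the 95% Wilson interval, which covers counting error only, held 50% in 10 of 14. For identical sequences such a share says nothing of which hairpin was read. Of the 5p reads, miR-199a made up 30.2% to 54.3% with a median of 37.3%, from 2405 to 18696 reads per library. C57BL/6 naive libraries 1, 4 and 5 lay above 50%, with an interval that held 50% in library 1, and the other 11 libraries below it. A single base separates the 5p sequences of the 2 hairpins, so the deposited split depends on how the authors' alignment treated that base, which the sources used here do not give.

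**Figure D2:**
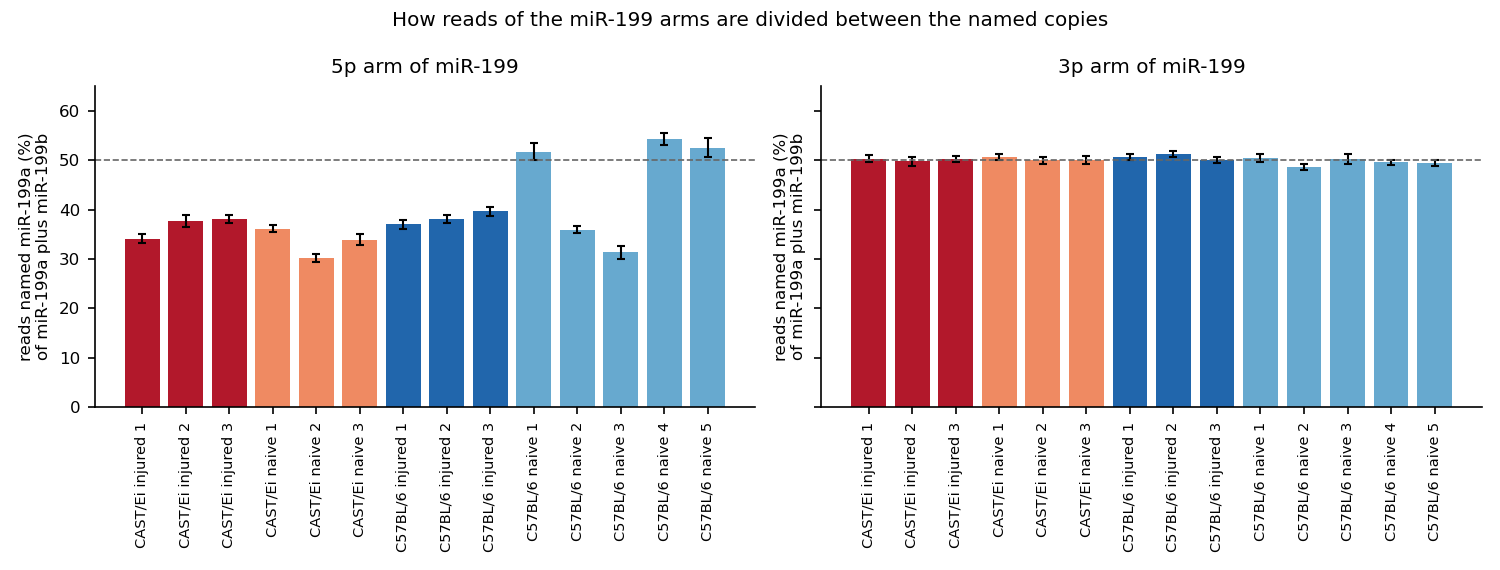
Percentage of miR-199 reads named miR-199a (y axis, out of miR-199a plus miR-199b, from 0) in each of the 14 libraries (x axis), for the 5p arm and the 3p arm, with 95% Wilson intervals and a dashed line at 50%. The 3p share stays between 48.6% and 51.2%, and the 5p share passes 50% only in C57BL/6 naive libraries 1, 4 and 5.

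After nerve injury in CAST/Ei, no member passed the test, and the 5p arms of miR-199 lay lower in every injured library than in any naive one, a direction that turned for miR-199a-5p under another scaling. The test was limma on log2(CPM + 1), fitted over all 638 kept miRNAs, with Benjamini-Hochberg adjustment over them in each comparison. In CAST/Ei 0 of 6 members passed, against 1.1% of all kept miRNAs, and 0 had an unadjusted p under 0.05, against 6.43%. miR-199a-5p averaged 354 ± 25.5 CPM in injured and 419 ± 20.2 CPM in naive DRG (SD, n = 3 each), a log2 fold change of -0.24 ± 0.31 (SE; limma adjusted p = 0.897). miR-199b-5p averaged 615 ± 77.1 CPM in injured and 837 ± 72.0 CPM in naive DRG (SD, n = 3 each), a log2 fold change of -0.45 ± 0.51 (SE; limma adjusted p = 0.886). Those were the 2 members whose groups did not overlap, where 26.6% of kept miRNAs did not overlap and 16.5% of kept miRNAs were lower throughout in injured DRG. Each SE rests on 1 spread shared by all 4 groups, and the SD of miR-199b-5p in C57BL/6 naive DRG was 381 CPM. Over the alternative settings the lowest adjusted p by limma, edgeR or DESeq2 was 0.413 for miR-199a-5p and 0.193 for miR-199b-5p. With each library rescaled to 1000000 in sum, miR-199a-5p had a log2 fold change of 0.025. For miR-214-3p the log2 fold change was 0.32 (95% interval -0.31 to 0.95). The median of the 6 was -0.25, against -0.09 over all 638.

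After nerve injury in C57BL/6, 0 of 6 members passed by limma, against 3.13% of kept miRNAs, and 0 had an unadjusted p under 0.05, against 23.7%. All 6 overlapped between injured and naive libraries, where 14.9% of kept miRNAs did not. miR-199b-5p was furthest from 0, at 755 ± 87.3 CPM in injured (SD, n = 3) and 522 ± 381 CPM in naive DRG (SD, n = 5), a log2 fold change of 0.86 with a 95% interval of -0.11 to 1.82 and a limma adjusted p of 0.271. miR-199a-5p had a log2 fold change of 0.46 (95% interval -0.12 to 1.04). The other 4 members lay between -0.23 and -0.09, and the median of the 6 was -0.12, against 0.12 over all kept miRNAs. Without C57BL/6 naive libraries 4 and 5, miR-199b-5p had a log2 fold change of 0.41 and miR-199a-3p of 0.26, where it had been -0.17 with them.

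Between the strains without injury, 0 of 6 members passed by limma, against 11.1% of kept miRNAs, and 2 had an unadjusted p under 0.05, against 31.8%. miR-199b-5p averaged 837 ± 72.0 CPM in CAST/Ei (SD, n = 3) and 522 ± 381 CPM in C57BL/6 naive DRG (SD, n = 5), a log2 fold change of 1.01 ± 0.45 (SE; limma adjusted p = 0.142). miR-214-3p averaged 794 ± 267 CPM in CAST/Ei and 1163 ± 313 CPM in C57BL/6 (SD), a log2 fold change of -0.57 ± 0.27 (SE; limma adjusted p = 0.155). No member's groups were apart, where 16.5% of kept miRNAs were, and the median of the 6 was -0.27, against 0.12 over all. The miR-199b-5p value turned on which C57BL/6 naive libraries were used. Its log2 fold change was 1.31 without library 2 and 1.29 without library 3, past the threshold by limma (adjusted p = 0.0432 and 0.0400), and 0.56 without libraries 4 and 5 (adjusted p = 0.402). The 3p arms of miR-199 changed sign without libraries 4 and 5, miR-199a-3p with 0.17 where it had been -0.25.

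Between the strains after injury, all 6 members lay lower in CAST/Ei than in C57BL/6 by their log2 fold changes, from -0.57 to -0.09, with miR-214-3p at 0.020 when library totals omit the 3 most abundant miRNAs, and 0 of 6 passed by limma, against 3.29% of kept miRNAs, with 0 at an unadjusted p under 0.05, against 8.78%. Groups did not overlap for 4 members, miR-199a-5p, miR-199a-3p, miR-199b-3p and miR-214-5p, each lower in CAST/Ei. Over all kept miRNAs the groups did not overlap in 35.9%, and were lower in CAST/Ei in 20.5%. The 3p arms are 1 sequence under 2 names, so the 4 are 3 measurements. miR-199a-5p averaged 354 ± 25.5 CPM in CAST/Ei and 466 ± 28.2 CPM in C57BL/6 injured DRG (SD, n = 3 each), a log2 fold change of -0.39 (95% interval -1.04 to 0.26). miR-214-5p averaged 29.8 ± 2.61 CPM in CAST/Ei and 44.9 ± 7.12 CPM in C57BL/6 injured DRG (SD, n = 3 each), a log2 fold change of -0.57 (95% interval -1.50 to 0.36). Fitted on the 6 injured libraries alone, without either naive group, these 4 had limma adjusted p of 0.0561 to 0.0888, which misses the threshold, in a fit that called 105 of 638 kept miRNAs (16.5%). The median of the 6 was -0.33, against -0.06 over all.

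**Figure D3:**
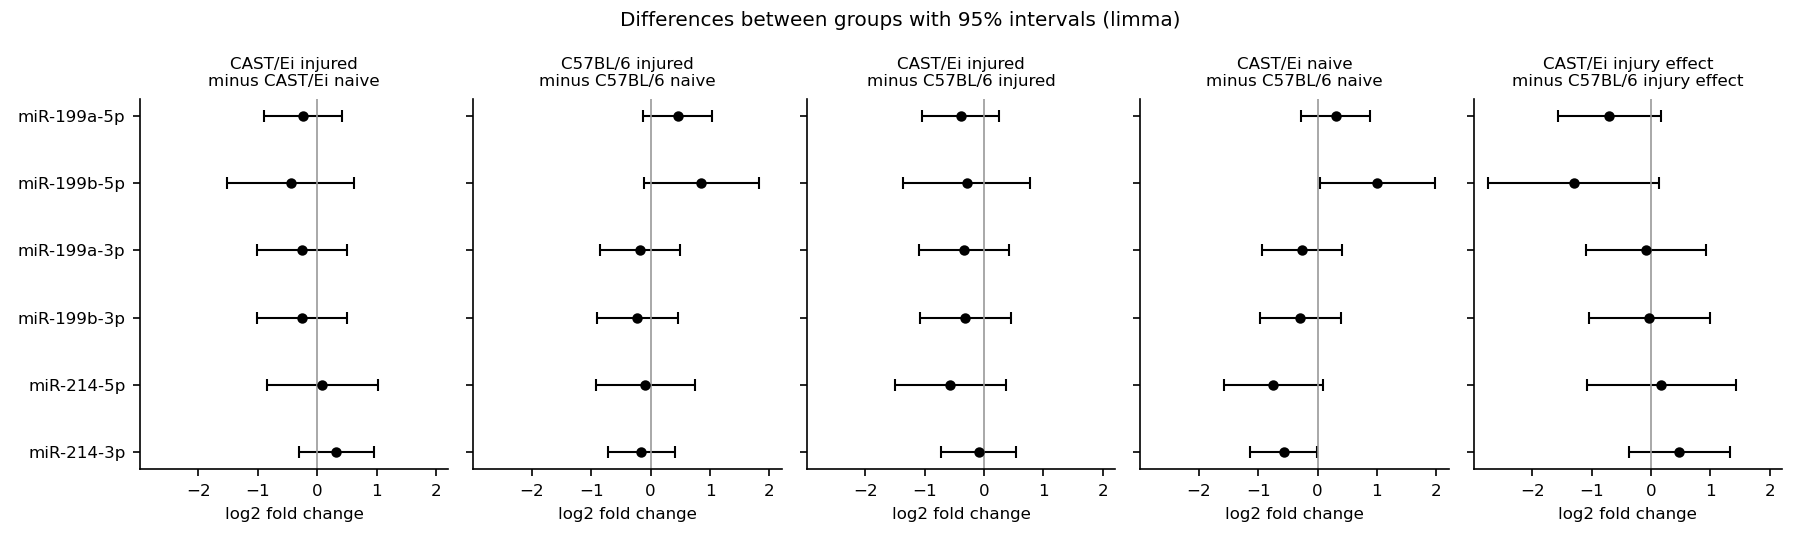
Log2 fold change of each arm (x axis) with its 95% interval from limma, in 5 comparisons named above the panels. The miR-199b-5p interval is above 0 for CAST/Ei naive against C57BL/6 naive DRG, from 0.05 to 1.97, and no member passed after adjustment over 638 miRNAs.

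The injury effect was not shown to differ between the strains for any member. For miR-199b-5p the CAST/Ei effect minus the C57BL/6 effect was -1.30 on the log2 scale, with a 95% interval of -2.75 to 0.14 and a limma adjusted p of 0.529. It was -0.70 for miR-199a-5p and 0.48 for miR-214-3p. Without C57BL/6 naive libraries 4 and 5 the values were -0.85 for miR-199b-5p, -0.58 for miR-199a-5p and 0.40 for miR-214-3p. The limma count was 0 of 6 members and 0% of kept miRNAs, with 0 members and 52 of all 638 (8.15%) at an unadjusted p under 0.05, and edgeR called 1 and DESeq2 9 of the 638. Averaged over the strains, injury gave 0 of 6 members past the threshold by limma, against 4.23%, and 0 at an unadjusted p under 0.05, against 15.8%. The lowest limma adjusted p was 0.655. In all 6 comparisons, edgeR and DESeq2 on recovered reads also called 0 of 6.

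Ratios of (CPM + 1) within a library cancel all of its scaling but the added 1 CPM. In them the C57BL/6 naive group spread more widely than the other groups, for miR-199 and in the median of all hairpins. The added 1 CPM lowers a ratio most where the 5p arm is scarce, as in CAST/Ei naive library 3, whose 3p over 5p ratio of miR-214 was 34.6 without it and 32.5 with it. The 3p reads named miR-199a and miR-199b are 1 sequence, so 3p over 5p under either name is not the arm ratio of 1 hairpin. The 3p over 5p ratio of miR-199a was 2.47 to 3.07 in the 9 libraries of the other groups, and 3.65, 2.01, 2.88, 4.25 and 12.2 in C57BL/6 naive libraries 1 to 5. The ratio of miR-199b-5p over miR-199a-5p was 1.62 to 1.93 in CAST/Ei injured, 1.77 to 2.30 in CAST/Ei naive and 1.52 to 1.70 in C57BL/6 injured DRG. In C57BL/6 naive libraries 1 to 5 it was 0.934, 1.78, 2.19, 0.841 and 0.903, so the libraries under 1 were again 1, 4 and 5. The SD of the log2 3p over 5p ratio over C57BL/6 naive libraries was 0.97 for miR-199a, 1.47 for miR-199b and 0.47 for miR-214, against a median of 0.81 over all hairpins with both arms kept. Over libraries 1 to 3 alone it was 0.43, 0.94 and 0.23. Within the other groups it was 0.12, 0.24 and 0.23, against a median of 0.36. The naive spread of the miR-199b pair was exceeded in 8.54% of hairpins and that of miR-199a in 31.7%, and that of miR-214 was smaller than most.

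For miR-214, injured CAST/Ei libraries lay apart from injured C57BL/6 ones in one ratio and from naive CAST/Ei ones in another, and neither passed the test. In these comparisons 35.9% and 26.6% of single kept miRNAs did not overlap either, and the share over ratios of other miRNAs was not counted. The 3p over 5p ratio was 32.7, 34.3 and 26.8 in CAST/Ei injured and 19.5, 26.2 and 21.6 in C57BL/6 injured DRG, with no overlap and a difference of 0.48 in the mean log2 ratio. In CAST/Ei naive DRG it was 22.4, 25.2 and 32.5. The ratio of miR-214-3p over miR-199a-3p was 0.995, 1.10 and 0.892 in CAST/Ei injured and 0.835, 0.818 and 0.426 in CAST/Ei naive DRG, also with no overlap and a difference of 0.58. Both reached the smallest p that 3 against 3 libraries allow in an exact two-sided permutation test, 0.1. There were 16 such tests, 4 ratios in 4 comparisons, and the lowest p adjusted over the 16 was 0.533. These tests could not pass the threshold at this sample size. With 3 against 5 libraries the smallest p is 0.0357, and with every test at its smallest p the adjusted value would still be 0.0714.

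**Figure D4:**
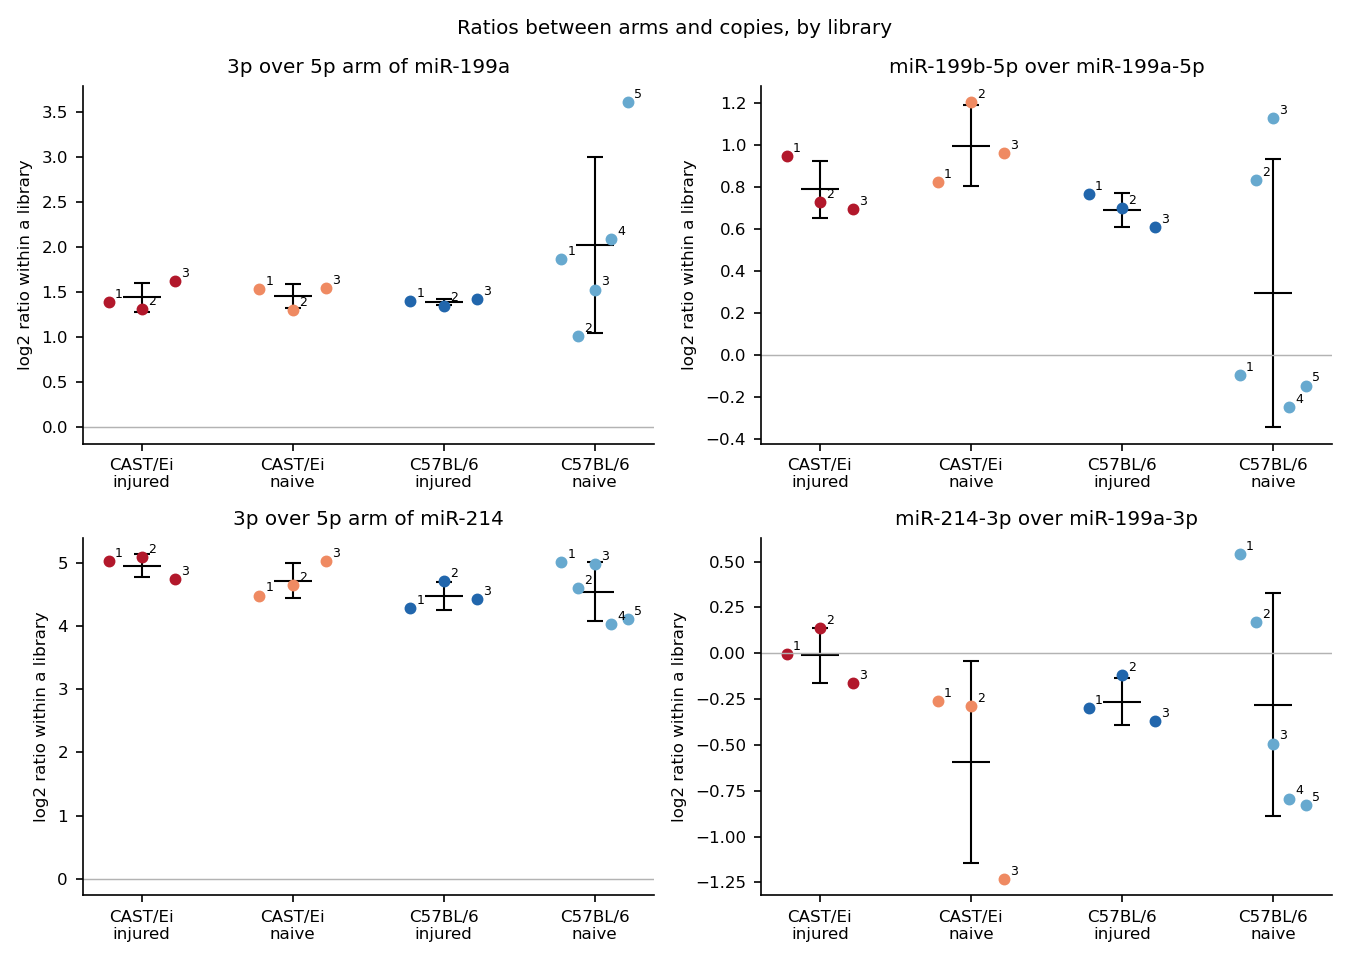
Log2 of 4 ratios within each library (y axis) in the 4 groups (x axis), with 1 numbered point per library and bars at the mean ± SD. C57BL/6 naive libraries 1, 4 and 5 lie under 0 for miR-199b-5p over miR-199a-5p, and library 5 stands highest for 3p over 5p of miR-199a.

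Over all 14 libraries the members correlated best in pairs, the copies of an arm of miR-199 and the arms of miR-214. These correlations of log2(CPM + 1) share the libraries' scaling and are given as a description. miR-199a-3p and miR-199b-3p had a Pearson r of 0.997 over 14 libraries, miR-199a-5p and miR-199b-5p 0.88, and miR-214-5p and miR-214-3p 0.85. The 5p and 3p arms of miR-199a had an r of -0.19 over 14 libraries, and of 0.79 over the 12 left without C57BL/6 naive libraries 4 and 5. Mir199a-2 and Mir214 lie on 1 transcript, and the r of miR-199a-3p with miR-214-3p was 0.38 over 14 libraries and -0.24 over 12. Reads of miR-199a-3p can also come from Mir199a-1 and Mir199b, so this r does not measure that transcript alone. In libraries 4 and 5, the mean log2 level minus that of libraries 1 to 3 was 1.07 for miR-199a-3p, 1.09 for miR-199b-3p and 0.98 for miR-214-5p, 0.19 for miR-214-3p, -0.31 for miR-199a-5p and -1.13 for miR-199b-5p, against a median of -0.06 over kept miRNAs.

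**Figure D5:**
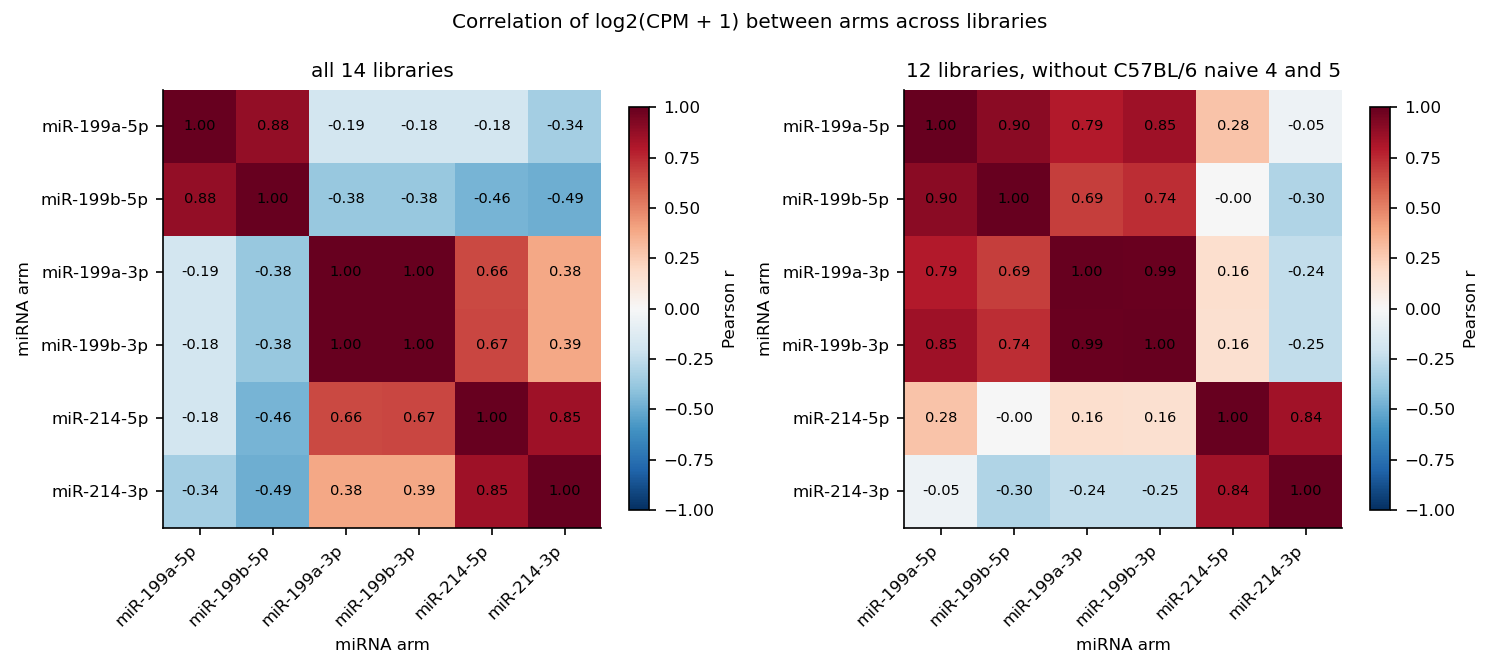
Pearson r of log2(CPM + 1) between the 6 arms (both axes) over all 14 libraries and over the 12 without C57BL/6 naive libraries 4 and 5 (color scale from -1 to 1). The r of miR-199a-5p with miR-199a-3p is -0.19 over 14 libraries and 0.79 over 12.

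Over 14 libraries, the miRNAs most like the mean of the 6 members were miR-467a-5p with a Pearson r of 0.80, miR-411-5p with 0.77, miR-3074-1-3p with 0.71, miR-148a-3p with 0.70 and miR-15a-3p with 0.69. Over the 12 libraries they were miR-467a-5p with 0.75, miR-144-3p with 0.73, miR-101a-3p with 0.71, miR-130a-3p with 0.70 and miR-411-5p with 0.69, so miR-467a-5p and miR-411-5p were in both. For miR-199b-5p alone, looked up after its values were seen, the nearest were miR-3065-5p with 0.91, miR-338-3p with 0.87 and miR-96-5p with 0.84 over 14 libraries. Their Spearman rho was 0.60, 0.63 and 0.73 in that order. Over 12 libraries they were miR-96-5p with 0.89, miR-3065-5p with 0.88 and miR-338-3p with 0.88, while the Spearman rho was 0.59, 0.38 and 0.44. miR-96-5p is on the neuronal list and miR-338-3p is the most abundant of the glial list.

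Of 12 miRNAs known for fibrosis and extracellular matrix, which include none of the members and share 4 with the mural, muscle and leukocyte lists, 2 were higher and 0 lower after injury in CAST/Ei, and 1 was higher and 1 lower after injury in C57BL/6, by the same limma fit. Over all kept miRNAs the shares were 1.1% higher and 0% lower in CAST/Ei, and 2.35% higher and 0.784% lower in C57BL/6. The higher ones, named for passing, were the arms of miR-21a, a miRNA induced in many injured tissues. miR-21a-5p had a log2 fold change of 1.57 ± 0.32 in CAST/Ei (SE; limma adjusted p = 0.0209) and 1.76 ± 0.29 in C57BL/6 (SE; limma adjusted p = 0.00283). miR-21a-3p had 2.89 ± 0.42 in CAST/Ei (SE; limma adjusted p = 0.00269) and 1.41 ± 0.38 in C57BL/6, where its limma adjusted p of 0.0534 misses the threshold. The lower one in C57BL/6 was the muscle miRNA miR-133a-3p, at -1.03 ± 0.24 (SE; limma adjusted p = 0.0288). The 3 most abundant of the list, miR-29b-3p, miR-26a-5p and miR-29a-3p, had log2 fold changes of -0.38, -0.42 and -0.21 in CAST/Ei and 0.06, -0.28 and 0.42 in C57BL/6, and none passed. The list's median was -0.18 in CAST/Ei and -0.01 in C57BL/6. Between the strains 0 of 12 passed by limma, in naive or in injured DRG.

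The other fibroblast miRNAs listed, miR-152-3p and miR-10a-5p, did not pass in any comparison by limma. In the mural cell list, which marks the muscle cells around vessels, 0 of 5 passed, and its leading members miR-145a-5p and miR-143-3p had log2 fold changes of -0.16 and 0.02 after injury in CAST/Ei and -0.17 and -0.09 in C57BL/6. By the same fit 0 members of the endothelial, myelinating glia, neuronal, erythrocyte, epithelial and hepatocyte lists passed in any comparison. Among the 4 comparisons of groups, the skeletal muscle list had 2 of 4 lower after injury in C57BL/6, miR-133a-3p and miR-206-3p at -1.58 ± 0.36 (SE; limma adjusted p = 0.0215). Of 7 leukocyte miRNAs 1 was higher after injury in C57BL/6, miR-511-3p at 1.47 ± 0.26 (SE; limma adjusted p = 0.0054). Over all kept miRNAs 0.784% were lower and 2.35% higher after injury in C57BL/6. Lower in CAST/Ei were miR-150-5p in naive DRG at -3.06 ± 0.72 and miR-511-3p in injured DRG at -1.31 ± 0.30 (SE; limma adjusted p = 0.0139 and 0.0167). Over all kept miRNAs 11.1% passed between naive strains and 3.29% between injured strains, in either direction. With injury averaged over the strains, 2 of 7 leukocyte miRNAs were higher and 1 of 4 muscle miRNAs lower, against 4.23% of kept miRNAs in either direction. miR-150-5p averaged 1468 CPM in C57BL/6 naive, 205 CPM in C57BL/6 injured and 120 CPM in CAST/Ei naive DRG. Its value without C57BL/6 naive libraries 4 and 5 is not given here.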

How the data were processed

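Small RNA libraries of mouse DRG were made with the miRVana and Ion Total RNA-Seq kits, per the labels' protocols, and aligned with Bowtie2, per the submitters' processing notes. The deposited files hold 1 signal value per miRNA, called CPM in their names. They total 867581 to 1311857 per library, so they are CPM on scaled library sizes, not plain CPM. In each library 100% of values were whole multiples of 1 read within 1e-06 reads, so reads were recovered. The recovery is least certain in C57BL/6 injured library 1. The sources used here give no genome build or counting rule.

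miRNAs that reached 5 CPM in 3 or more libraries (638, all 6 members among them) were tested as log2(CPM + 1), which understates changes of low miRNAs. limma-trend (R 4.3.3, limma 3.58.1) fitted 4 group means over 14 libraries, two-sided, with Benjamini-Hochberg adjustment per contrast and a threshold of 0.05. It was tested on simulated counts with 1 spread per miRNA for all 4 groups. That test does not cover a group with a wider spread, as C57BL/6 naive had for the miR-199 arms. Ratios of (CPM + 1) used exact permutation tests. edgeR 4.0.16 and DESeq2 1.42.0 on recovered reads, other scalings, filters, pseudocounts and left-out libraries were alternatives. Hairpin positions were set against the GRCm38 gene annotation. The members, lists (fibroblast, fibrosis, mural, endothelial, muscle, leukocyte, glial, neuronal, erythrocyte, epithelial, hepatocyte) and tests were chosen with earlier results of these data known. Named outside the members are the 5 miRNAs most like their mean, the 3 most abundant of the fibrosis list and up to 2 of others; others named were chosen after their values were seen. Replicate numbers come from the titles. Deviations of same-numbered libraries correlated weakly in naive DRG of the 2 strains (r of 0.104 to 0.114 for 3 pairs). In 2 of the 3 a library of another number correlated more (0.170 and 0.129), and in the other comparisons at least 1 pair was under 0.1. The highest r was 0.312, for libraries 3 of injured and naive C57BL/6 DRG, where another number reached 0.191. Pairs 1 and 2 there were at -0.081 and -0.049. The series text calls the samples biological replicates. Where nothing more says that they came from separate animals, p-values measure the spread between libraries, which limma shares over all 4 groups.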

Additional observations from a re-analysis of the deposited data

How the results depend on the processing

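Leaving aside single left-out libraries, 358 values of a member under an alternative kept direction and call and 17 changed sign, as did 112 and 2 of the counts and ratios. No member passed in any of them. The replicate block changed no call and gave the same values as leaving out C57BL/6 naive libraries 4 and 5. For injury in C57BL/6 these were 0.26 for miR-199a-3p, 0.21 for miR-199b-3p and 0.30 for miR-214-5p, and for the strains in naive DRG 0.17 for miR-199a-3p and 0.15 for miR-199b-3p. Without those libraries the log2 ratio of 3p over 5p of miR-214 between naive strains was -0.14, and that of miR-214-3p over miR-199a-3p after injury in C57BL/6 was -0.34. With plain CPM, which moved the median of all miRNAs after injury in CAST/Ei to 0.15 where it had been -0.09, miR-199a-5p, miR-199a-3p and miR-199b-3p were at 0.025, 0.0063 and 0.013 there, and miR-214-5p at 0.052 after injury in C57BL/6. With library totals that omit the 3 most abundant miRNAs, miR-214-3p was at 0.020 between injured strains. edgeR gave miR-214-5p -0.000815 after injury in CAST/Ei, and -0.000608 without C57BL/6 injured library 1, a setting added after the data were seen. Over single left-out libraries, 371 values of a member kept direction and call, 5 changed sign and 2 passed, and the count of members past the threshold between naive strains was 0 to 1. After injury in C57BL/6, miR-199a-3p ran from -0.36 to 0.10, miR-199b-3p from -0.43 to 0.046 and miR-214-5p from -0.30 to 0.15. After injury in CAST/Ei, miR-214-5p ran from -0.34 to 0.44, and between naive strains miR-199a-3p from -0.44 to 0.015. Log2 ratios ran from -0.20 to 0.050 for 3p over 5p of miR-214 and from -0.12 to 0.22 for miR-214-3p over miR-199a-3p after injury in C57BL/6. They ran from -0.11 to 0.046 for 3p over 5p of miR-199a after injury in CAST/Ei, from -0.037 to 0.12 for it between injured strains, and from -0.48 to 0.00487 for miR-214-3p over miR-199a-3p between naive strains. Except for the values without those libraries, the cause was not tested. Fitting only the groups compared gives no value for the difference between injury effects. limma, edgeR and DESeq2 called 20, 32 and 79 of all 638 miRNAs after injury in C57BL/6, 7, 8 and 15 in CAST/Ei, 71, 77 and 118 between naive strains, and 21, 21 and 25 between injured strains. edgeR called 5 after injury in C57BL/6 without C57BL/6 injured library 1. Fits on only the groups compared called 3, 9, 21 and 105 in these 4 comparisons, in that order. With 3 to 5 libraries a group, standard errors of the members' log2 fold changes were 0.27 to 0.51 between 2 groups, and up to 0.68 for the difference between injury effects.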
